A study of Mus musculus with 21 samples.

Results

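The comparison was between the livers of 12 mice that received titanium dioxide (TiO2) nanoparticles into the airways and those of 9 mice that received the vehicle, for the part of the difference common to 1 and 28 days after the dose. Its members are the 21 arrays of the series, all of which entered the comparison, chosen by their treatment and time labels. All animals were female C57BL/6 mice, bought at 5 to 7 weeks of age and acclimatized for 1 to 3 weeks. The TiO2 mice had 162 µg of nano-TiO2 per mouse, suspended in saline with 10% cell-free lavage fluid from the airways of naïve mice, and the control mice had that fluid without particles. Of the control mice, 5 were taken at day 1 and 4 at day 28, and of the TiO2 mice, 6 at either day. Each array held the RNA of 1 mouse, so the replicates are animals. The design text counts 22 arrays, of which 21 were analysed here.

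The liver makes most plasma proteins, including the complement factors and the acute phase proteins, whose genes respond to inflammatory cytokines carried in the blood. It also clears particles from the blood through Kupffer cells, its resident macrophages. Hepatocytes break down fatty acids and amino acids in their mitochondria and turn cholesterol into bile acids, a pathway whose first and rate-limiting step is catalysed by Cyp7a1. Levels below are log2 of the liver signal over that of a reference RNA pooled from mouse cell lines, so a difference of 1 is a 2-fold difference, and levels of different genes are not comparable with each other. In whole liver, fewer cells of a type and less RNA per cell cannot be told apart.

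Liver identity held on every array, although the extraction text in the labels speaks of lung. Of 14 hepatocyte markers, 14 were well above background on all 21 arrays, their median lying at log2 5.27 to 6.68, while 4 to 12 of 14 lung markers were, at a median of -0.08 to 0.23. Both medians are ratios to the reference RNA for different genes, so their sizes are not comparable. Arrays were scanned on 3 days, each with arrays of all 4 groups, and scan day accounted for 91.7% of the first principal component, which held 40.1% of the variance, against 0.639% for treatment. Between 12985 and 26616 probes per array were above background in the liver channel, with 20879 to 26616 on scan day 2 and 12985 to 16903 on the others. The TiO2 arrays differed from control arrays by 152 ± 764 (SE) such probes after day and scan day were allowed for. The day 1 control replicate 1, the one day 1 control of scan day 1, stood apart for 12 of the named genes. The counts of each list below are given with the values that resulted when this or another single mouse was left out.

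No single gene carried a difference large enough to pass the test over both days. In limma, with day and scan day as additive terms, 0 of 17640 features (11255 named genes and the rest unnamed probes; 0%) had an adjusted p under 0.05, and the smallest adjusted p was 0.137. An unadjusted p under 0.05 was seen for 797 features (4.52%), of which 285 lay higher (1.62%) and 512 lower (2.9%) in TiO2 livers. The median SE was 0.08 and the median difference -0.005 on the log2 scale. A difference above 0.5 in size was found for 48 features, and above 1 for 3. Every named gene below had an adjusted p of 0.958 to 0.999, so its values are differences that did not pass the test, given with their spread.

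Cyp7a1, which sets the pace of bile acid production, had the largest difference among the 20 named genes with the smallest p. At day 1 its log2 ratio ran from 2.57 to 5.46 (median 4.88) in control livers and from 1.68 to 3.78 (median 3.18) in TiO2 livers. At day 28 it ran from 4.26 to 6.24 (median 4.88) in control and from 2.76 to 5.17 (median 3.69) in TiO2 livers. The groups overlapped at both days, at day 1 through a single low control (replicate 2, at 2.57), and 11 of 12 TiO2 livers lay below the control mean of their day. Over both days Cyp7a1 was lower by a log2 difference of -1.48 ± 0.34 (SE), a fold of 0.359 (limma, adjusted p = 0.958). The difference was -1.69 ± 0.47 at day 1 and -1.23 ± 0.50 at day 28, and these differed from each other by 0.46 ± 0.68 (adjusted p = 0.999). It lay at -1.74, -0.63 and -2.23 within scan days 1, 2 and 3. A second Cyp7a1 probe of lower signal gave -0.50, and the mean of both probes gave -0.99.

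**Figure D1:**
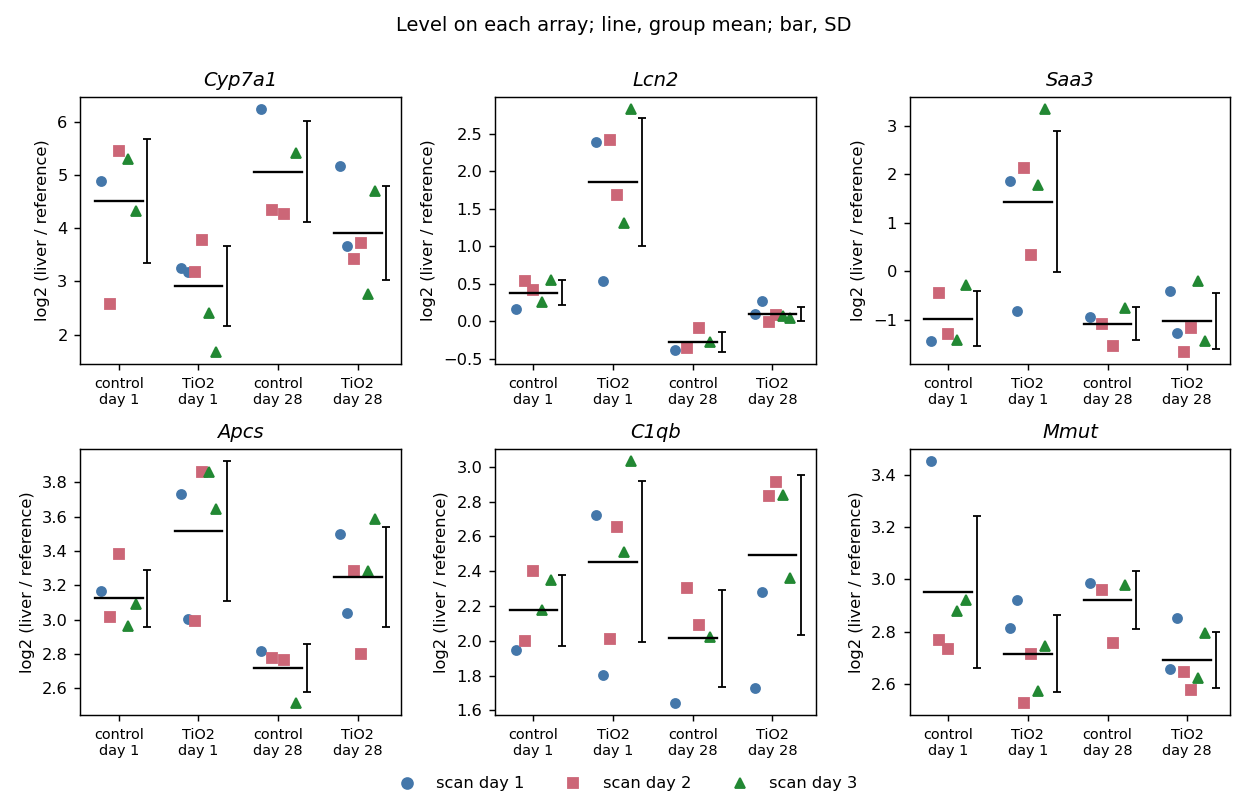
Log2 ratio of liver to reference RNA on each of the 21 arrays (vertical axis) for 6 genes, by group (horizontal axis), with the scan day as symbol, the group mean as a line and the SD as a bar. Cyp7a1 and Mmut lay lower and Apcs and C1qb higher in the TiO2 livers of both days, whereas Saa3 was high at day 1 in 5 of 6 TiO2 livers and overlapped the controls at day 28.

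Other genes of bile acid handling did not share a direction. Of 28 measured members of the list, 13 lay higher and 15 lower, with a median of -0.002 whose sign turned under some settings, and an unadjusted p under 0.05 went to 1 higher and 2 lower (1.62% and 2.9% of all features). When single mice were left out, 12 to 18 lay higher, and 0 to 3 higher and 1 to 3 lower had such a p. Nr0b2, which encodes SHP, a repressor of Cyp7a1 transcription, lay 0.45 ± 0.21 higher, with 0.45 at day 1 and 0.46 at day 28. Cyp8b1, the sterol 12-hydroxylase, lay 0.37 ± 0.19 higher, and Abcc2, an export pump of the bile canaliculus, lay at -0.28 ± 0.12. Ranges overlapped for all 3, and Abcc2 gave -0.07 with the scanner software's own ratios. For Nr0b2 the control livers ran from 1.69 to 3.38 at day 1 and 1.51 to 2.78 at day 28, and the TiO2 livers from 2.57 to 3.37 and 1.99 to 3.32.

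Acute phase genes made up 3 of the 10 named genes with the smallest p among those that lay higher. They were Lcn2, which encodes lipocalin 2, a protein that withholds iron carriers from bacteria, Orm1, an acid glycoprotein, and Apcs, which encodes serum amyloid P, a pentraxin. Saa3 is an inducible serum amyloid A of liver and macrophages and had the largest difference of the acute phase genes at day 1. The bases before the start sites of Lcn2, Apcs and Saa3 are shown because the results below turn on these genes, and they differ in the motifs they hold. The sequences are from RefSeq (GRCm38.p6), 250 bases up to the start, read in the direction of the gene: chr2:32387740-32387989 for Lcn2, chr7:46715677-46715926 for Saa3 and chr1:172895055-172895304 for Apcs, all on the minus strand. Capitals mark matches on either strand to TTNNGNAA, letters bound by C/EBP factors, or to TTCNNNGAA, letters bound by STAT factors. 
Lcn2: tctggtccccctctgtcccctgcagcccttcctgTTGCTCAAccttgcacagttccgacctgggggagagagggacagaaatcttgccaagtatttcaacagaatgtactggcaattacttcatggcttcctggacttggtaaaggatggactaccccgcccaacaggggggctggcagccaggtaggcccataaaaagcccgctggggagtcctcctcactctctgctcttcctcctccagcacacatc
Saa3: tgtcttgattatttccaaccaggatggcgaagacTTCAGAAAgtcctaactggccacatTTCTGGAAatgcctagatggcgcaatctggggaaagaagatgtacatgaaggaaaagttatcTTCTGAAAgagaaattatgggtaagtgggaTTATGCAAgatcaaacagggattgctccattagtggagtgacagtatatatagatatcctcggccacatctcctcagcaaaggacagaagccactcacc
Apcs: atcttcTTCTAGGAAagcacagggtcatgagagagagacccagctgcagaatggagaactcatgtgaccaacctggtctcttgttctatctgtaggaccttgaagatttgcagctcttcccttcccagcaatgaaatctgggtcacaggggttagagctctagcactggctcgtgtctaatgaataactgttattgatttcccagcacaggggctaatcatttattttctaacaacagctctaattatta
Lcn2 held 1 and Saa3 4 matches to the first motif, and Apcs 1 match to the second. Of 32841 promoters of this length, 36.9% held the first motif and 7.02% the second, and the NF-kB consensus, in 3.9% of promoters, was in none of the 3. These are matches of letters and were not tested as sites.

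Lcn2 was higher in TiO2 livers at both days. Its log2 ratio ran from 0.16 to 0.54 (median 0.41) in day 1 control livers and from 0.53 to 2.82 (median 2.03) in day 1 TiO2 livers, and from -0.39 to -0.10 (median -0.32) and -0.01 to 0.27 (median 0.08) at day 28. At day 28 the groups did not overlap, which held for 52 of all features (0.295%), and at day 1 a single TiO2 liver (replicate 2, at 0.53) lay within the controls. The difference over both days was 0.99 ± 0.22, a fold of 1.98 (limma, adjusted p = 0.958), with 12 of 12 TiO2 livers above the control mean of their day. It was 1.51 ± 0.26 at day 1 and 0.39 ± 0.28 at day 28. The day 28 difference minus the day 1 difference was -1.11 ± 0.38 (adjusted p = 0.999). Lcn2 was 1 of 521 features (2.95%) whose days differed at an unadjusted p under 0.05, of which 322 lay higher (1.83%) and 199 lower (1.13%) at day 28 than at day 1. Within the 3 scan days the difference over both days lay between 0.92 and 1.00. With the scanner software's own ratios it was 2.10, and it then passed the test (adjusted p = 0.0249). Those ratios raised some other differences, such as that of Rgs1 (1.53), and shrank others, such as those of Apcs and Orm1.

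The serum amyloid A genes Saa3 and Saa1 lay higher at day 1 and near the control level at day 28, and the common term is the average of both days. Saa3 ran from -1.45 to -0.29 (median -1.29) in day 1 control and from -0.81 to 3.34 (median 1.81) in day 1 TiO2 livers, and replicate 2 was again the TiO2 liver within the control range. At day 28 the ranges were -1.54 to -0.75 and -1.66 to -0.20, and they overlapped throughout. The difference over both days was 1.32 ± 0.42, from 2.47 ± 0.45 at day 1 and 0.01 ± 0.49 at day 28, and the days differed by -2.46 ± 0.66 (limma, adjusted p = 0.999). Saa1, a circulating acute phase apolipoprotein, gave 0.98 ± 0.32 over both days, 1.85 at day 1 and -0.01 at day 28. Its near-identical relative Saa2, whose probe may share signal with Saa1, gave 0.53 at day 1 and -0.10 at day 28. For Saa2, day 1 control replicate 1 lay at 3.45 and the other day 1 controls at 4.72 to 5.01. The day 1 TiO2 livers lay at 4.47 to 5.51. Without that control the Saa2 difference over both days was 0.09, against 0.23 with it. Orm3, an orosomucoid, gave 0.87 at day 1 and -0.03 at day 28.

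Apcs and Orm1 differed by similar amounts at both days. Apcs ran from 2.96 to 3.38 (median 3.09) in control and 2.99 to 3.86 (median 3.69) in TiO2 livers at day 1, and from 2.51 to 2.82 (median 2.77) and 2.80 to 3.58 (median 3.28) at day 28. At day 28 a single TiO2 liver (2.80) lay within the control range. The difference was 0.45 ± 0.12 over both days (limma, adjusted p = 0.958), 0.40 at day 1 and 0.52 at day 28, and 10 of 12 TiO2 livers lay above the control mean of their day. Orm1, which encodes alpha-1-acid glycoprotein, ran from 6.28 to 7.01 and 6.54 to 7.58 at day 1, and from 6.11 to 6.46 and 6.19 to 7.21 at day 28. Its difference was 0.33 ± 0.08, 0.40 at day 1 and 0.24 at day 28. With the scanner software's ratios the difference over both days was 0.17 for Apcs and 0.12 for Orm1. The Orm genes are close copies, and Orm2 gave 0.15 ± 0.14 over both days, with the opposite sign in the scanner software's ratios (-0.08).

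Across the acute phase list, 33 members were measured, of which 23 lay higher and 10 lower, with a median of 0.08, where 47.6% of all features lay higher. These counts also take in members that fall in acute phase states, such as Alb. At both days 12 members lay higher. Of all features, 51.8% had the same sign at both days, but that share counts both directions and is not a like measure for the 12. The mean level over the list was 4.16 in control and 4.44 in TiO2 livers at day 1. At day 28 it was 3.98 in control and 3.98 in TiO2 livers. An unadjusted p under 0.05 went to 10 higher and 0 lower, against 1.62% and 2.9% of all features. The 10 became 7 without day 1 control replicate 1 (1.36% of all features higher), 6 without day 1 TiO2 replicate 6 and 6 without scan day 3, and the median became 0.14 without day 1 TiO2 replicate 2. With no scan day in the model the median was 0.04. Those 10 were Lcn2, Orm1, Apcs, Saa3, Saa1, Orm3, Cd14, a co-receptor for lipopolysaccharide, Lbp, its plasma carrier, Serpina3n, a protease inhibitor, and Itih3. Lbp gave 0.26, and 0.14 without day 1 control replicate 1. At day 1 and day 28 Lbp gave 0.47 and 0.02, and Itih3 0.52 and 0.04. Cd14 gave 0.39 and 0.13, and Serpina3n 0.37 and 0.30. With the scanner software's ratios Serpina3n gave 0.10 over both days and Cd14 0.45. Classical members such as Hp, haptoglobin (0.08 ± 0.10), Mt1, metallothionein 1 (-0.004 ± 0.27), and Alb, albumin, which falls in acute phase states (-0.07 ± 0.10), lay within about 1 SE of 0. These 3 took the opposite sign under some settings. The value of Mt1 averaged 0.44 at day 1 and -0.51 at day 28. C3, the central complement factor, gave 0.13 ± 0.08, and -0.32 when normexp was run on all spots. Hmox1, the haem-degrading enzyme of oxidative stress responses, gave -0.22 ± 0.15 over 20 arrays, since day 28 control replicate 1 lacked a value, and -0.07 without day 1 control replicate 1.

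**Figure D2:**
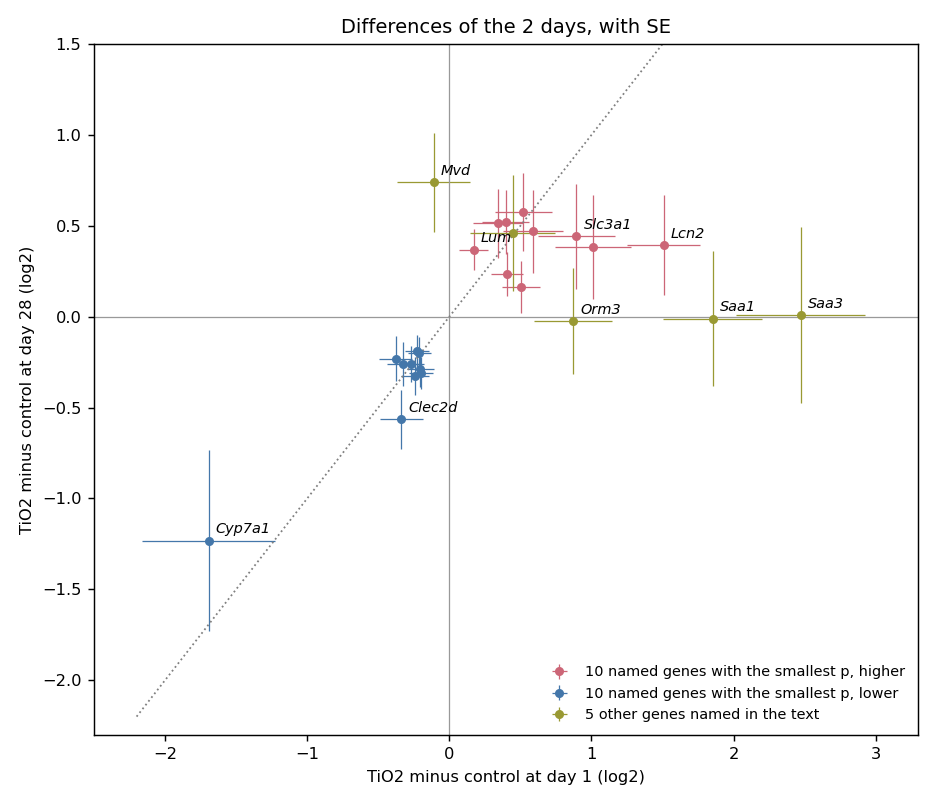
Difference between TiO2 and control livers at day 1 (horizontal, log2) against that at day 28 (vertical, log2), with SE bars, for the 20 named genes with the smallest p over both days and 5 others; the dotted line marks equal differences. Cyp7a1 lay far to the lower left at -1.69 and -1.23, while Saa1, Saa3 and Orm3 lay to the right near 0 on the vertical axis.

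Complement genes are of interest because the series title names that cascade in the heart of these mice. Of 30 measured complement genes, 23 lay higher and 7 lower in TiO2 livers, with a median of 0.07, against 47.6% of all features higher and a median of -0.005. An unadjusted p under 0.05 went to 7 higher and 0 lower (1.62% and 2.9% of all features): C1qb and C1qc, chains of C1q, Mbl1, a mannose-binding lectin, and C6, C8a, C8b and C9, parts of the membrane attack complex. Without day 1 control replicate 1 the count was 2 of 30, with 21 higher and a median of 0.09. It was 3 without day 28 control replicate 4, 4 without scan day 1 and 2 without scan day 3. With no scan day in the model the median of the list was 0.01. C6, C8b and C9 were named after their values were seen.

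C1qb ran from 1.95 to 2.40 (median 2.18) in control and 1.80 to 3.03 (median 2.58) in TiO2 livers at day 1, and from 1.64 to 2.31 (median 2.05) and 1.73 to 2.91 (median 2.60) at day 28. Ranges overlapped at both days, with a wider spread among TiO2 livers. The difference was 0.42 ± 0.13 (limma, adjusted p = 0.958), 0.34 at day 1 and 0.51 at day 28, and it lay between 0.34 and 0.54 within the 3 scan days. Of the terminal components, C8a gave 0.43 ± 0.16, C8b 0.43 ± 0.17, C9 0.44 ± 0.19 and C6 0.26 ± 0.11. Within scan days C8a gave -0.01, 0.29 and 1.06. With the scanner software's ratios C8b gave 0.06 and C9 0.22, but C6 gave 0.44. C9 ran from 1.80 to 4.05 in day 1 control and 2.96 to 4.39 in day 1 TiO2 livers, and its lowest value, 1.80, was day 1 control replicate 1, without which the difference was 0.26. C8g, the remaining C8 chain, gave -0.04 ± 0.09, and the classical pathway proteases C1ra and C1s1 gave 0.01 and -0.001. Cfb, the alternative pathway protease, gave -0.13 at day 1 and 0.32 at day 28.

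Markers of Kupffer cells and macrophages had the highest median of the 12 lists. Of 16 measured markers, 15 lay higher and 1 lower in TiO2 livers, with a median of 0.22, and 6 of them had an unadjusted p under 0.05, all higher (1.62% of all features). At both days, 12 of 16 lay higher. Of all features, 52.4% lay lower over both days. The same sign at both days was seen for 51.8% of all features, a share that counts both directions and is not a like measure for the 12. The levels overlapped between groups, since the mean over the list ran from 2.00 to 2.47 in day 1 control, 2.02 to 3.15 in day 1 TiO2, 2.11 to 2.63 in day 28 control and 1.98 to 2.92 in day 28 TiO2 livers. The 6 were C1qb, C1qc, Folr2, folate receptor beta of tissue macrophages (0.45 ± 0.16), Cd14 (0.27 ± 0.11), Lyz2, lysozyme (0.37 ± 0.16), and Vsig4, a complement receptor (0.31 ± 0.15). With the scanner software's ratios C1qc gave 0.13, Folr2 0.29 and Vsig4 0.03, but Cd14 gave 0.45. Clec4f, specific to Kupffer cells, gave 0.04 ± 0.14, Adgre1, the F4/80 antigen, 0.18 ± 0.15, and Marco, a scavenger receptor for particles, 0.39 ± 0.27. Without day 1 control replicate 1 there were 15 of 16 higher and 5 with a p under 0.05, and without day 1 TiO2 replicate 6 there were 12 and 3. Without scan day 3 there were 12 of 16 higher and 2 with a p under 0.05, and the list's median was 0.03, 0.13 and 0.47 within scan days 1, 2 and 3.

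Neutrophil markers were scarce in these livers: 6 of the 14 on the array entered the test, and Elane, Camp, Ngp, Mmp8 and Mmp9 were well above background on 0 of 21 arrays. Besides Lcn2, which hepatocytes also make, S100a9, a calcium-binding protein of myeloid cells, lay 0.59 ± 0.25 higher. It ran from 2.61 to 4.07 in control and 2.99 to 4.98 in TiO2 livers at day 1. At day 28 the ranges were 2.04 to 3.90 and 2.43 to 4.09, so the groups overlapped at both days. S100a9 lay above the control mean of its day in 8 of 12 TiO2 livers, and gave 0.44 without day 1 TiO2 replicate 6. Its partner S100a8 gave 0.14 ± 0.12 with 9 of 21 arrays above background, and 0.08 without day 28 TiO2 replicate 3. Chil3 gave 0.14 ± 0.12, Csf3r -0.06 ± 0.06 and Mpo -0.004 ± 0.08. Of the 6, 4 lay higher and 2 lower, with a median of 0.14, where 52.4% of all features lay lower. Only Lcn2 and S100a9 had an unadjusted p under 0.05 (2 higher and 0 lower, against 1.62% and 2.9% of all features). When single mice were left out, 1 to 2 higher had such a p. The part of other cell types in the differences of Lcn2 and the C1q genes was not tested.

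**Figure D3:**
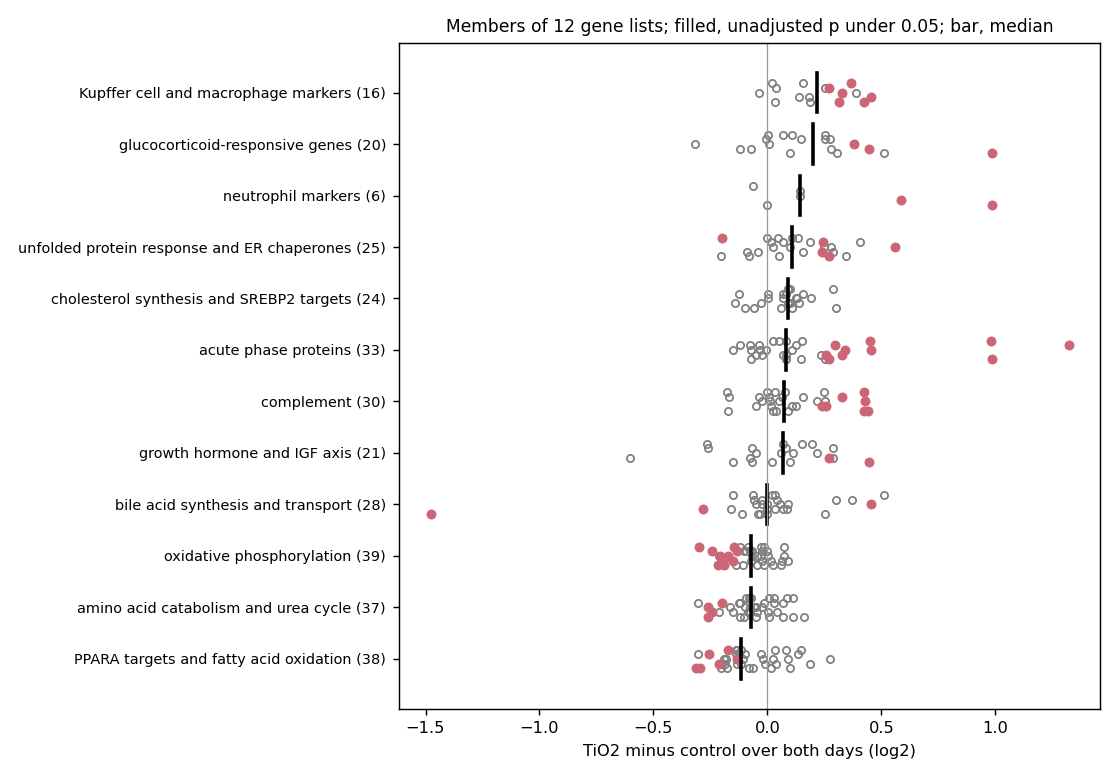
Difference between TiO2 and control livers over both days (horizontal axis, log2) for each measured member of 12 gene lists (vertical axis, members measured in brackets), with filled points for an unadjusted p under 0.05 and a bar at the median. The bars of Kupffer cell markers lay at 0.22 and of fatty acid oxidation genes at -0.12, and Cyp7a1 is the point at -1.48.

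Most genes of mitochondrial metabolism lay lower, by small amounts, and none passed the test. Among subunits of the respiratory chain and ATP synthase, 31 of 39 measured lay lower and 8 higher, with a median of -0.07, and an unadjusted p under 0.05 went to 10 lower and 0 higher. Of all features, 52.4% lay lower, 2.9% at that p. At both days 22 lay lower. Of all features, 51.8% had the same sign at both days, but that share counts both directions and is not a like measure for the 22. Uqcrc1, a core subunit of complex III, gave -0.22 ± 0.06 (limma, adjusted p = 0.958) over 20 arrays, since day 28 control replicate 1 lacked a value. Its ranges overlapped, from 0.34 to 0.98 in control and 0.18 to 0.77 in TiO2 livers at day 1, and 0.42 to 0.87 and 0.32 to 0.71 at day 28. Ndufs3 (also over 20 arrays), Ndufa2 and Ndufb9, of complex I, gave -0.19, -0.21 and -0.24, with Ndufb9 at -0.15 without day 1 control replicate 1. Within scan days 1, 2 and 3 Ndufa2 gave -0.51, -0.07 and -0.13, and Ndufb9 gave -0.69, -0.03 and -0.13. The list's median was 0.05 within scan day 1 (over 35 members with a value in each group), the opposite sign, and -0.07 and -0.08 within scan days 2 and 3. Without day 1 control replicate 1 there were 34 of 39 lower and 4 with a p under 0.05, and 5 had such a p without day 1 TiO2 replicate 4.

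Fatty acid oxidation and targets of PPARA, the receptor that drives it, gave 27 of 38 lower and 11 higher, with a median of -0.12 and 6 lower and 0 higher at an unadjusted p under 0.05 (2.9% and 1.62% of all features). Without day 1 control replicate 1 the 6 became 3 and the median -0.07. Within scan days 1, 2 and 3 the median was -0.25, -6.8e-05 and -0.06. Hadh, the short-chain hydroxyacyl-CoA dehydrogenase, ran from 2.55 to 3.55 (median 2.72) in control and 2.35 to 3.02 (median 2.53) in TiO2 livers at day 1, and from 2.48 to 2.90 (median 2.72) and 2.29 to 2.68 (median 2.50) at day 28. The groups overlapped, with the highest value, 3.55, in day 1 control replicate 1, and 11 of 12 TiO2 livers lay below the control mean of their day. The difference was -0.30 ± 0.08, -0.33 at day 1 and -0.26 at day 28, and -0.22 without that replicate. The thiolases Acaa1b and Acaa2 gave -0.21 and -0.13, Acadl, a long-chain acyl-CoA dehydrogenase, -0.26, and Cpt1a, the carnitine transferase that controls entry of fatty acids into mitochondria, -0.19 ± 0.10. Cpt1a gave -0.10 without day 1 control replicate 1, and its second probe gave 0.04.

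Mmut, the methylmalonyl-CoA mutase of propionate breakdown, was lower by similar amounts at both days. It ran from 2.74 to 3.45 (median 2.88) in control and 2.53 to 2.92 (median 2.73) in TiO2 livers at day 1, and from 2.76 to 2.99 (median 2.97) and 2.58 to 2.85 (median 2.65) at day 28. Each of the 12 TiO2 livers lay below the control mean of its day, although the ranges overlapped. The difference was -0.26 ± 0.06 (limma, adjusted p = 0.958), with -0.27 at day 1 and -0.26 at day 28, and -0.21 without day 1 control replicate 1. A second Mmut probe gave -0.07. In amino acid catabolism and the urea cycle, 25 of 37 measured genes lay lower, with a median of -0.07, and 4 lower and 0 higher had an unadjusted p under 0.05 (2.9% and 1.62% of all features). The 4 became 2 without day 1 control replicate 1, 0 without scan day 3, and 1 to 8 when single mice were left out, lowest without day 28 control replicate 2 and day 1 TiO2 replicate 6 and highest without day 1 control replicate 2. The median ran from -0.09 to -0.04. The 4 were Gls2, liver glutaminase (-0.26 ± 0.09), Prodh, proline dehydrogenase (-0.24 ± 0.10), Gpt2, an alanine transaminase (-0.26 ± 0.12), and Uroc1, urocanase (-0.20 ± 0.09).

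In the list of the unfolded protein response and chaperones of the endoplasmic reticulum, 20 of 25 genes lay higher, with a median of 0.11. An unadjusted p under 0.05 went to 4 higher, Pdia6 (0.27 ± 0.09), Calr (0.24 ± 0.08), Sdf2l1 (0.56 ± 0.20) and Dnajc3 (0.25 ± 0.09), and to 1 lower, Ddit3, the transcription factor CHOP (-0.20 ± 0.08), against 1.62% and 2.9% of all features. Without day 1 control replicate 1 these counts were again 4 and 1, and without scan day 1 they were 2 and 0. The median was 0.07 without day 28 control replicate 1 or 4 or without day 1 TiO2 replicate 3. Sdf2l1 ran from -0.38 to 1.01 in control and 0.54 to 1.67 in TiO2 livers at day 1, and from -0.60 to 0.48 and -0.04 to 1.10 at day 28, so the ranges overlapped at both days. Hspa5, the chaperone BiP, gave -0.07 at day 1 and 0.69 at day 28. The same days gave -0.12 and 0.43 for Canx, -0.07 and 0.23 for Pdia4, and 0.04 and 0.49 for Hyou1. Calr (0.33 and 0.14) and Dnajc3 (0.30 and 0.18) had the larger difference at day 1. Of Calr's 2 probes, the dimmer gave 0.05, and of Pdia6's 3 probes the others gave 0.37 and 0.08.

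Glucocorticoid-responsive genes lay higher in 16 of 20, with a median of 0.20 (0.31 at day 1 and 0.07 at day 28), and 3 higher and 0 lower had an unadjusted p under 0.05 (1.62% and 2.9% of all features, of which 47.6% lay higher). The median was 0.12 without day 1 TiO2 replicate 4, and the 3 became 2 without day 1 control replicate 1, 7 without day 1 control replicate 4, 6 without day 28 TiO2 replicate 3 and 5 without day 28 control replicate 2 or 3. Igfbp1, an insulin-like growth factor binding protein, gave 0.44 ± 0.16, 0.69 at day 1 and 0.17 at day 28, but -0.05 with the scanner software's ratios. Sgk1, a kinase, gave 0.62 at day 1 and 0.10 at day 28, and the third of them was Lcn2, which several lists share. Cholesterol synthesis genes lay higher in 19 of 24, with a median of 0.09 (-0.06 at day 1 and 0.20 at day 28), and 0 had an unadjusted p under 0.05 in either direction. The median fell to 0.02 without day 28 control replicate 1 and to 0.03 without scan day 1, and 3 higher had such a p without day 1 control replicate 4, and 2 without day 1 TiO2 replicate 6 or without scan day 3. Mvd, a mevalonate pathway enzyme, gave -0.11 ± 0.26 at day 1 and 0.74 ± 0.27 at day 28, a difference between days of 0.85 ± 0.37 (adjusted p = 0.999). In the growth hormone and IGF list, 13 of 21 lay higher, with a median of 0.07, and Igfbp1 and Igfals, a carrier of IGF (0.27 ± 0.12), had an unadjusted p under 0.05, against 1.62% of all features. The median was 0.02 without day 1 control replicate 1, 0.03 without day 28 control replicate 1 or 4 or day 1 TiO2 replicate 4, and 0.16 without day 1 TiO2 replicate 3, and the 2 became 1 to 3 when single mice were left out. With no scan day in the model the median was 0.01. Igfals gave 0.18 without day 1 control replicate 1. At day 28 its highest control (3.81) and lowest TiO2 liver (3.81) were level to 2 decimals.

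Mup5, a major urinary protein, is in none of these lists and lay higher by about the same amount at both days. It ran from 6.45 to 8.0 (median 7.63) in control and 7.60 to 8.24 (median 7.97) in TiO2 livers at day 1, and from 7.17 to 7.89 (median 7.48) and 7.71 to 8.43 (median 8.12) at day 28. The difference was 0.55 ± 0.14 (limma, adjusted p = 0.958), 0.52 at day 1 and 0.57 at day 28, with 12 of 12 TiO2 livers above the control mean of their day. Without day 1 control replicate 1, at 6.45, it was 0.39. The Mup genes are near-identical copies that 1 probe can share, and Mup1 gave 0.20 ± 0.12.

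The remaining higher genes of the 20 were Rgs1, a regulator of G protein signalling in leukocytes (0.72 ± 0.20), Etnk2, ethanolamine kinase 2 (0.53 ± 0.15), Slc3a1, the heavy chain of the cystine transporter (0.68 ± 0.20), Lum, the matrix proteoglycan lumican (0.26 ± 0.08), and Ankrd33b (0.35 ± 0.10). Slc3a1 ran from 2.21 to 3.84 in control and 3.66 to 4.62 in TiO2 livers at day 1, and from 2.39 to 3.71 and 3.01 to 3.98 at day 28. Its difference was 1.72 within scan day 1 and 0.35 and 0.39 within the others. A second Ankrd33b probe gave 0.01.

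On the lower side were Riok1, an atypical kinase of ribosome assembly (-0.25 ± 0.06), Clec2d, a ligand of natural killer cell receptors (-0.44 ± 0.11), Ammecr1l (-0.28 ± 0.07), Cflar, the caspase-8 regulator c-FLIP (-0.31 ± 0.08), Catsper2 (-0.24 ± 0.07), Mdm2, the ubiquitin ligase of p53 (-0.21 ± 0.06), and Spg7, a mitochondrial protease (-0.21 ± 0.06). Cflar ran from 0.50 to 1.29 in control and 0.28 to 0.71 in TiO2 livers at day 1, and from 0.59 to 0.78 and 0.35 to 0.65 at day 28. All 12 TiO2 livers lay below the control mean of their day for Cflar, but its other 2 probes gave 0.03 and -0.08. Clec2d gave -0.34 at day 1 and -0.56 at day 28, with overlapping ranges at both.

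**Figure D4:**
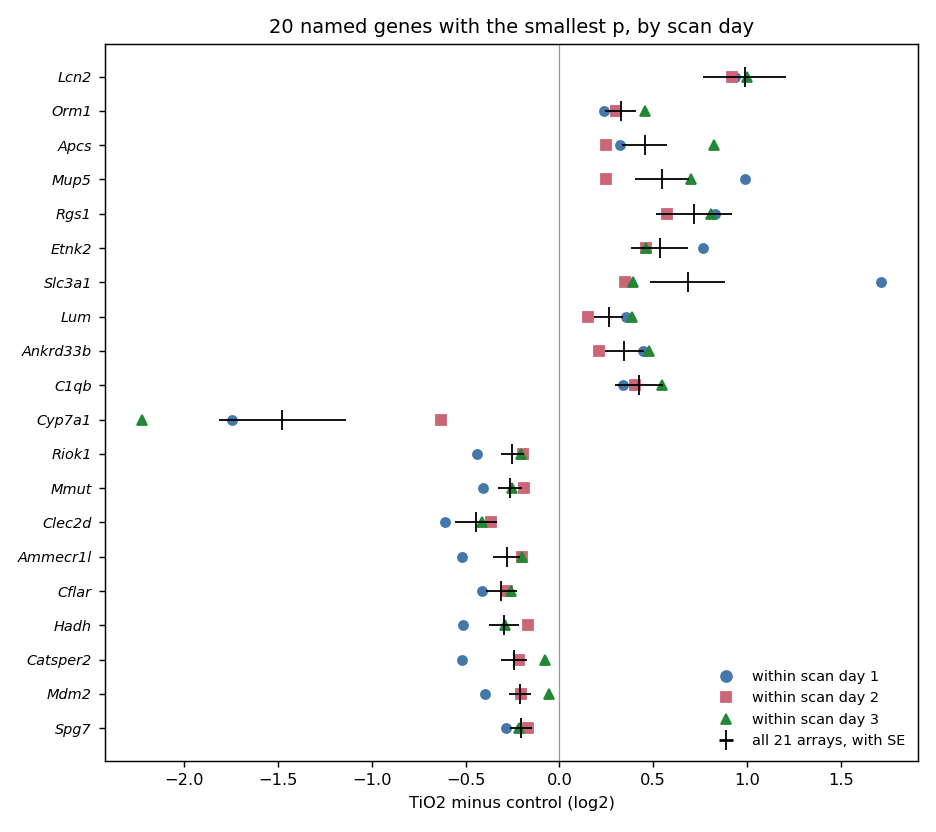
Difference between TiO2 and control livers (horizontal axis, log2) for the 20 named genes with the smallest p (vertical axis), within each scan day as symbols and over all 21 arrays as a bar with its SE. The sign was the same within all 3 scan days for the 20 genes, which their choice by p on the same arrays favours. The widest gaps were those of Cyp7a1 (-0.63 to -2.23) and Slc3a1 (0.35 to 1.72).

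Agreement between days was weak over the whole array. Each of the 20 genes lay the same way at both days, a property that their choice by a common effect favours. Over all 17640 features, which are not independent of each other, the difference at day 1 and that at day 28 had Pearson's r of 0.094 and Spearman's rho of 0.049, with the same sign in 51.8%, and the days shared scan days and slides but no animal. Taken by day, 0 features passed in limma at day 1 (0%), where 721 (4.09%) had an unadjusted p under 0.05, 2.2% higher and 1.89% lower. At day 28 it was 0 (0%), with 542 (3.07%), 1.42% higher and 1.65% lower. The difference between days passed for 0 features (0%). The count of features whose groups did not overlap was 19 at day 1 (0.108%) and 52 at day 28 (0.295%), with 0 the same way at both. TiO2 lay higher in all 6 combinations of day and scan day for 232 features (1.32%) and lower in all for 367 (2.08%). Among them were 7 of the 10 higher and 8 of the 10 lower genes, which their choice on the same arrays also favours.

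The smallest p of all went to unnamed probes. A_52_P348879 ran from 1.00 to 1.64 in control and 0.26 to 1.33 in TiO2 livers at day 1, and from 0.57 to 1.67 and 0.19 to 1.02 at day 28. Its liver signal was well above background on 14 of 21 arrays. These were all 5 day 1 and all 4 day 28 control arrays, but 3 of 6 day 1 and 2 of 6 day 28 TiO2 arrays. The probe was lower by a log2 difference of -0.69 ± 0.12 (limma, adjusted p = 0.137), with -0.63 at day 1 and -0.74 at day 28. With slides as a random block its adjusted p was 0.0375, and without day 1 TiO2 replicate 4, the highest of its group, 0.0153. A_52_P624155 lay at -0.90 ± 0.17 (adjusted p = 0.211), and each of the 12 TiO2 livers lay below the control mean of its day. The RefSeq table used here holds no gene for either probe.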

How the data were processed

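Liver RNA (Cy5) and a universal mouse reference RNA (Cy3) were hybridised to 21 Agilent arrays with 2 colours and no dye swap. The deposited spot values are intensity, the median brightness of spot and local background, unnormalized per the file headers. The deposited LogRatio is log10 of processed red over green, made by Feature Extraction 10.7.3.1 per the file headers (9.5.3.1 per the submitters' processing notes). The table the authors deposited holds log2 values of unstated scale, centring and direction; it correlated at 0.9957 to 0.9972 with red over green ratios made here without background subtraction, with column medians of -0.058 to -0.011, and its centring stays unknown. 

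Median signals took the place of mean signals, which were not among the columns. They were background-corrected in limma 3.58.1 (R 4.3.3) by normexp with offset 50, with marked spots set to the array's median for that fit and then left out, and normalized by loess within arrays. Of 41174 probes, 23374 were named through RefSeq accessions (GRCm38.p6), 17800 were not and 0 had several genes. Probes well above background in liver on at least 50% of the arrays of 1 group were kept, with 1 probe per gene, that of the highest liver signal; 214 features lacked a value on some array. Differences were tested in limma over all features (Benjamini-Hochberg, threshold 0.05), with treatment, day and scan day; effects by day came from a model of the 4 groups with scan day. Per the labels, samples are biological replicates. The steps were tested on simulated data.

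Named genes were the 10 with the smallest p in each direction, a fixed set of acute phase and metabolic genes, and the 4 of smallest p in each of 12 lists, with others named after their values were seen; a gene of the fixed set is not reported here. The members and lists were chosen with earlier results of these data known. Alternatives covered background, scaling, filters, probes, blocks, single arrays and scan days.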

Additional observations from a re-analysis of the deposited data

Results flagged for a closer look

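Among the 87 named features, each of the 348 groups was searched for 1 mouse far from the others of its group, judged by its gap to the nearest mouse over the group's range. This marked 28 values, or 8.05% of the groups. Chance marks about 1 in 20 where the mice of a group vary alike, but the values were not adjusted for scan day. Control day 1 replicate 1 and control day 28 replicate 1 were each the only scan day 1 array of their group. For these mice, animal and scan day cannot be told apart. Values are log2 ratios of liver to reference, with the nearest mouse of the group in brackets. The mouse control day 1 replicate 1 stood apart for 12 genes: Ankrd33b at -0.23 (0.33), Mmut at 3.45 (2.92), Spg7 at 0.17 (-0.12), Saa2 at 3.45 (4.72), Hp at 5.67 (6.65), Folr2 at 1.66 (2.59), C1qc at 2.92 (4.32), Acadl at 3.32 (2.56), Ndufs3 at 1.58 (1.06), C9 at 1.80 (3.57), Ndufv1 at 1.39 (0.52) and Gnpat at 0.94 (0.22). The mouse TiO2 day 28 replicate 1 stood apart for 4 genes: Cyp8b1 at 1.24 (2.52), Lifr at 4.26 (5.54), C8b at 4.28 (5.13) and Serpina3n at 2.07 (3.03). The mouse control day 28 replicate 1 stood apart for 4 genes: C3 at 5.99 (5.70), Igfbp1 at 6.99 (8.25), G6pc at 4.78 (5.83) and Gnpat at 0.70 (0.07). The mouse control day 1 replicate 4 stood apart for 2 genes: Orm3 at 3.79 (2.73) and Sqle at 1.48 (0.93). For TiO2 day 1 replicate 2 it was Ammecr1l at 1.72 (1.40). For TiO2 day 1 replicate 6 it was S100a9 at 4.98 (3.70). For TiO2 day 28 replicate 2 it was Ndufs3 at 1.08 (0.93). For TiO2 day 28 replicate 5 it was Orm1 at 7.21 (6.52). For TiO2 day 28 replicate 6 it was Dnajc3 at 2.02 (2.41). For control day 28 replicate 3 it was Mmut at 2.76 (2.96). The 12 values of control day 1 replicate 1 were low for complement, macrophage and acute phase genes (C1qc, C9, Folr2, Hp, Saa2) and high for mitochondrial genes (Mmut, Acadl, Ndufs3, Ndufv1, Spg7), the directions in which control livers differed from TiO2 livers.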

How the results depend on the processing

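Over both days the count of features passing the test was 0 in the analysis reported and 0 or 1 under the alternatives. It was 1 with slide as a random block (A_52_P348879, at -0.71), 1 with the scanner software's LogRatio (Lcn2, at 2.10) and 0 to 1 when single mice were left out, 1 of them without TiO2 day 1 replicate 4 (A_52_P348879). At an unadjusted p under 0.05 the count was 797; it was 323 with no scan day in the model, 387 with normexp on all spots (chosen after seeing the data), 522 without scan day 1, and 571 to 1036 without single mice, lowest without control day 1 replicate 1. The sign turned for genes near 0. Mt1 became 0.225 with array weights, 0.00179 in the liver channel alone, 0.0235 with no scan day, 0.0296 with a normexp offset of 10, 0.000902 with scan day as a random block, 0.0652 with the scanner's LogRatio, 0.0333 and 0.0207 with slide as a fixed and a random block, 0.0765 in the authors' table, 0.194 without scan day 1, 0.094 without scan day 3 and -0.168 to 0.188 without single mice. Mt2 became 0.0736 with array weights, 0.0754 without scan day 3 and -0.31 to 0.132 without single mice. Alb became 0.0205 in the liver channel, 0.0262 with slide as a fixed block and 0.0128 without scan day 1. Hp became -0.000764 with no scan day and -0.156 with normexp on all spots, and C3 -0.319 there. Orm2 became -0.077 with the scanner's LogRatio and -0.0138 without scan day 3, and Igfbp1 -0.0481 with the scanner's LogRatio. The causes were not tested. Second probes took the opposite sign for Cflar (0.031) and Cpt1a (0.038). No other named feature changed sign in the alternatives run. No paired analysis was possible because the replicate numbers were given here in accession order and pair no animals. The number of arrays limits the precision, and probes near background have compressed ratios.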
